A study of Mus musculus with 38 samples.

Results

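The addition of *Sall4* to the 4-factor combination JGEO was examined at day 7 of reprogramming without BMP4. JGEO stands for *Jdp2*, *Glis1*, *Esrrb* and *Oct4* (*Pou5f1*), and JGESO is the same set with *Sall4*. The comparison runs across all genes of 1 JGESO library and 1 JGEO library, with short RNAs left out and no selection by outcome. Of 37108 genes in the table, 14115 had an FPKM (fragments per kilobase of exon, scaled to the mapped fragments of a library) that reached 1 in JGEO or in JGESO, and these were compared.

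SALL4 is a zinc-finger transcription factor of early embryos and embryonic stem cells that binds AT-rich DNA and can recruit the NuRD complex, a chromatin remodeler and histone deacetylase. OCT4 is a POU factor required for the inner cell mass, and the same cells give rise to the epiblast and to the primitive endoderm (PrE), the extra-embryonic layer specified by GATA6, GATA4 and SOX17. PrE then forms visceral endoderm, an absorptive epithelium, and parietal endoderm, which secretes a thick basement membrane.

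The cells were mouse embryonic fibroblasts (MEFs) of E13.5 embryos from crosses of OG2 mice, which carry an *Oct4*-GFP reporter, with 129S4/SvJaeJ mice. Factors were delivered by retroviral pMXs vectors and cells were kept in iCD3 medium. All conditions used here received *Jdp2*, *Glis1* and *Esrrb*, namely JGE (these 3 alone), JGES (with *Sall4*), JGEO (with *Oct4*) and JGESO (with both), each without BMP4 (BMP4−) and with BMP4 at 10 ng/ml (BMP4+). Every condition had 1 library. The study made these libraries to examine what SALL4 and BMP4 do to pluripotency and to PrE formation.

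The comparison has 1 library per side and was not tested, so no p-value or replicate error is given, and every difference below describes 2 libraries. Differences are of log2(FPKM + 1), and a gene is called higher or lower when the difference is at least 1. This scale understates the change of low genes. In bulk RNA, fewer cells of a type and less RNA per cell cannot be told apart.

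FPKM multiplied by transcript length fell on whole steps within 0.05 for 70.3% of the low single-transcript genes in JGEO and for 69.7% in JGESO. Read as 1 fragment on a transcript of 1 kb, a step was an FPKM of 0.0614 in JGEO and 0.0498 in JGESO, a smaller step meaning a deeper library. It was 0.0682 and 0.0676 in JGEO and JGESO with BMP4 and 0.062 in JGE, but 0.366 in JGES and 0.338 in JGES with BMP4, whose low values are therefore the least precise.

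*Sall4* itself had an FPKM of 28.9 in JGEO and 174 in JGESO, a difference of 2.55. It was 30.3 and 213 in the BMP4+ libraries, and 2.09 in JGE and 273 in JGES, so in each pair the library labelled with *Sall4* had the higher level. The other delivered factors were lower where *Sall4* was added. *Pou5f1* was 1570 in JGEO and 370 in JGESO (difference −2.08), *Jdp2*, an AP-1 family repressor, was 1290 and 320 (−2.01), and *Esrrb*, an orphan nuclear receptor, was 384 and 109 (−1.81). *Glis1* was below 1 in both libraries, at 0.15 and 0.203, and its delivery cannot be read from this table. Viral and endogenous transcripts of a factor are not separated by these values. The lower levels of *Pou5f1*, *Jdp2* and *Esrrb* accompany every result below, and their part in those results was not tested.

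In all, 1006 genes were higher in JGESO, which is 7.13% of the genes compared, and 2894 were lower, which is 20.5%. Higher genes thus made up 25.8% of those called. The counts of each gene list below stand beside these shares, and a list with few calls can be close to them. They started from a low level, with a median FPKM of 2.26 in JGEO and 11.4 in JGESO. Of these 1006 genes, 347 (34.5%) were below an FPKM of 1 in JGEO and 53 were listed at 0 there. The lower genes had a median FPKM of 9.01 in JGEO and 2.35 in JGESO, where 757 of them (26.2%) were below 1 and 57 were listed at 0. The balance changed with the size of the difference. At a difference of at least 2, 224 genes were higher and 389 lower, at a difference of at least 3, 79 genes were higher and 53 lower, and at a difference of at least 4, 20 were higher and 7 lower.

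**Figure D1:**
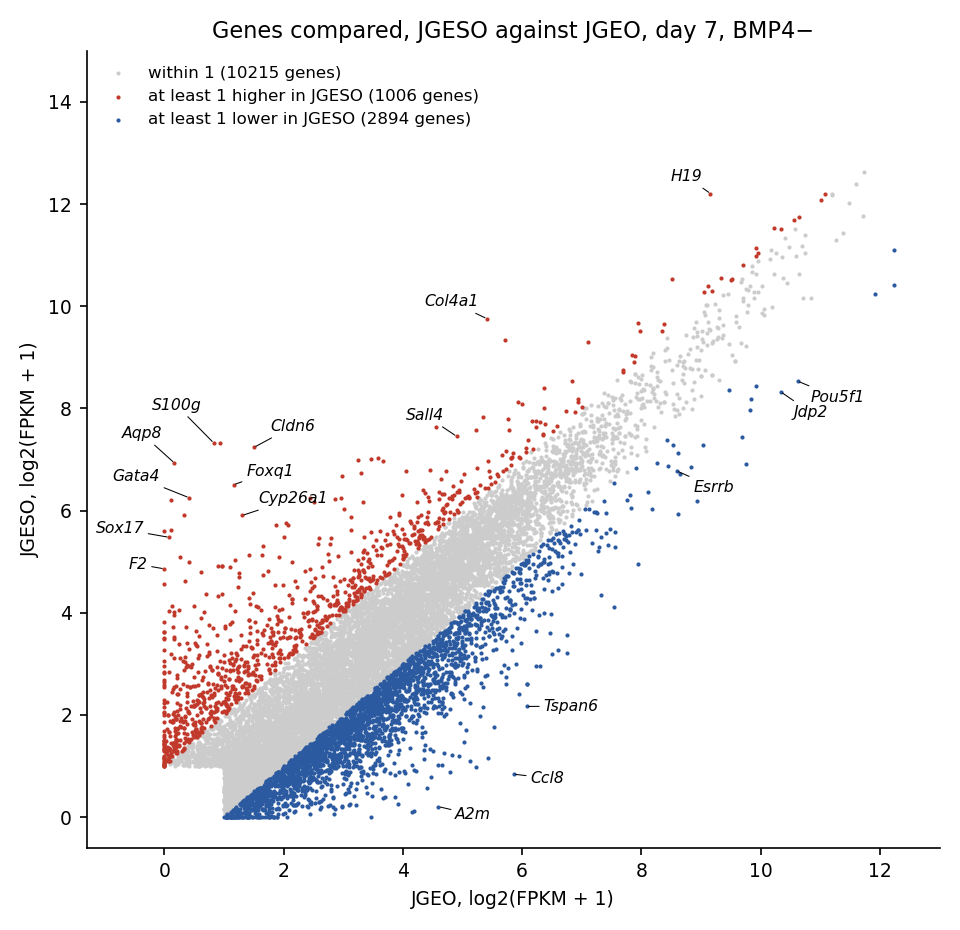
Levels of the 14115 genes in JGEO (x axis) and JGESO (y axis), both as log2(FPKM + 1), 1 point per gene and 1 library per axis. The 1006 red points are at least 1 higher and the 2894 blue points at least 1 lower in JGESO, and the red points farthest from the diagonal lie near 0 on the JGEO axis.

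The excess of lower genes moved with base composition. Genes were sorted by the GC content of their transcripts and cut into 10 equal groups. The lowest group (median GC of 40.7%) had a median difference of −0.80, and the highest (60.3%) had 0.32. The correlation of the difference with GC content was 0.41 over 13489 genes, which share the 2 libraries and are not independent. Higher genes had a median GC content of 55.0% and lower genes of 46.9%, against 50.9% for all genes compared. A second set of differences was therefore computed by subtracting, from each gene, the median of the genes nearest to it in GC content (GC-centred, chosen after seeing the data). By this measure 1255 genes were higher (9.3% of 13489) and 1273 lower (9.44%), so higher genes made up 49.6% of those called. The part of GC content in any single difference was not tested.

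Scaling alone also moved the balance. The median difference over all genes was −0.26, and the median log2 ratio of the 11645 genes that reached an FPKM of 1 in both libraries was −0.22. Setting that median ratio to 0 gave 1419 higher and 2310 lower genes (38.1% of called genes higher), beside 25.8% as deposited. Rescaling to one total without delivered factors, short RNAs and mitochondrial genes gave 845 and 3409 (19.9%). Ribosomal protein genes held 11.2% of the FPKM of JGEO and 16.1% of JGESO, and short RNAs 7.27% and 10.8%.

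**Figure D2:**
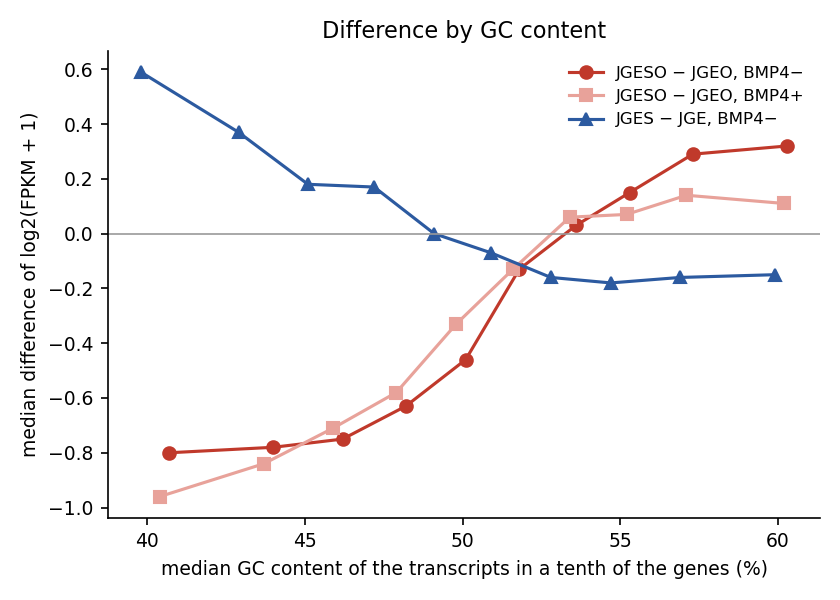
Median difference of log2(FPKM + 1) (y axis) in 10 equal groups of the genes ordered by transcript GC content (x axis, median GC in percent), for 3 pairs of libraries that differ by *Sall4*. In JGESO against JGEO without BMP4 (red circles) the medians go from −0.80 to 0.32, and the pair with BMP4 (pink squares) has a similar course while JGES against JGE (blue triangles) slopes the other way.

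PrE genes were far higher in JGESO than in JGEO. Of the 12 PrE genes, 10 were higher, 0 were lower and 2 were within the threshold, and their median difference was 3.47, beside −0.26 over all genes. The GC-centred median was 3.27 with the same count of 10 higher and 0 lower. Of the higher genes, *Gata4* and *Sox17* were compared only through JGESO, which favours a higher call. This list holds genes that the study follows as PrE markers, so it is not independent evidence of its direction.

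The 3 transcription factors at the head of PrE specification were all higher. *Gata4* had an FPKM of 0.335 in JGEO and 75.2 in JGESO, a difference of 5.84 and a ratio of 224. It was 1.41 and 57.2 in JGEO and JGESO with BMP4, and 0.441 in JGE and 10.0 in JGES. Each library without *Sall4* was thus at 1.41 or below, and the JGESO libraries had the highest levels. *Sox17* went from 0.0575 to 43.6 (difference 5.40), a low value that rests on about 3 fragments in JGEO and about 2835 in JGESO. *Gata6*, which acts upstream of *Gata4* in the embryo, was 3.0 and 43.7 (3.48), with 4.04 and 15.6 in the BMP4+ pair.

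Factors and effectors of the established endoderm followed the same direction. *Foxa2*, a forkhead factor of endoderm, was 1.39 in JGEO and 25.2 in JGESO (difference 3.45). *Pitx1*, a homeobox factor, was 2.66 and 51.8 (3.85), and *Cited1*, a transcriptional co-regulator, was 6.87 and 102 (3.71). *Dab2*, an endocytic adaptor that PrE cells need for their surface position, was 3.2 and 51.9 (3.65). Among the cell surface and matrix genes, *Lama1* was 19.3 and 83.5 (2.06) and *Pth1r*, the parathyroid hormone receptor, was 20.3 and 75.7 (1.85). *Eva1a* was 1.72 and 11.1 (2.15). The members within the threshold were *Klf4* (26.4 and 47.6, difference 0.83) and *Chst15* (11.5 and 16.4, 0.48).

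The promoter windows of 3 genes are printed here because these are the PrE adaptor *Dab2* and the 2 genes with the largest rises, *Aqp8* and *S100g*, and because the peaks described further on differ between them. Each window runs from 250 bases before to 50 bases after the annotated start, 5′ to 3′ on the gene's strand, from RefSeq on GRCm38.p6. Capitals mark AGATAA or its complement TTATCT, a form of the GATA site, and ATATT or its complement AATAT, an AT-rich stretch of the kind SALL4 binds. The windows are chr15:6299539-6299838 (plus strand) for *Dab2*, chr7:123462044-123462343 (plus strand) for *Aqp8* and chrX:162964550-162964849 (minus strand) for *S100g*.
Dab2: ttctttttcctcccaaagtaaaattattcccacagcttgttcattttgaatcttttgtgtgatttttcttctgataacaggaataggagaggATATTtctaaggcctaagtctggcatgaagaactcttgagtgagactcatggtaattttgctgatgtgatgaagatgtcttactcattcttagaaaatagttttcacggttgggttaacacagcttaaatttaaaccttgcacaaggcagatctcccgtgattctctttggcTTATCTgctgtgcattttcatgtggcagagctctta
Aqp8: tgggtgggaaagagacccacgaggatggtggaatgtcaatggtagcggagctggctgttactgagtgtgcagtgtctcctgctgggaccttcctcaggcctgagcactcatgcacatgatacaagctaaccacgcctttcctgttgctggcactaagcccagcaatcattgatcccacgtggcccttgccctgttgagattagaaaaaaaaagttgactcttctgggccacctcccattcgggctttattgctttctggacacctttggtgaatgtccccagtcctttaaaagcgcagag
S100g: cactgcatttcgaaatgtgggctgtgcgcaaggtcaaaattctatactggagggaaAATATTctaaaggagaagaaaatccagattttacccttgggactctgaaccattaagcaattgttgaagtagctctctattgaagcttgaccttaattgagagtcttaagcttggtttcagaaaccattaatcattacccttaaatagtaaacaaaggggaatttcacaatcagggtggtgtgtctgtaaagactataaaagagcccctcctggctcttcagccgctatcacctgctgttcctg

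The *Dab2* window holds 1 AGATAA and 1 ATATT, the *Aqp8* window holds neither, and the *S100g* window holds 2 overlapping matches to ATATT, 1 on each strand. Both motifs were searched on both strands, and matches to the 2 can overlap. AGATAA stood in 11.4% of all 27025 promoters in the reference and in 5.96% of the 10429 promoters of genes compared. It stood in 9.03% of the 742 promoters of higher genes and in 6.2% of the 2080 promoters of lower genes. ATATT stood in 26% of all promoters, in 12.7% of those of genes compared, in 11.2% of those of higher genes and in 14.9% of those of lower genes. Of the 12 PrE genes, 7 matched a promoter, of which 1 held AGATAA and 2 held ATATT. These are matches of letters and show neither a binding site nor a cause.

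**Figure D3:**
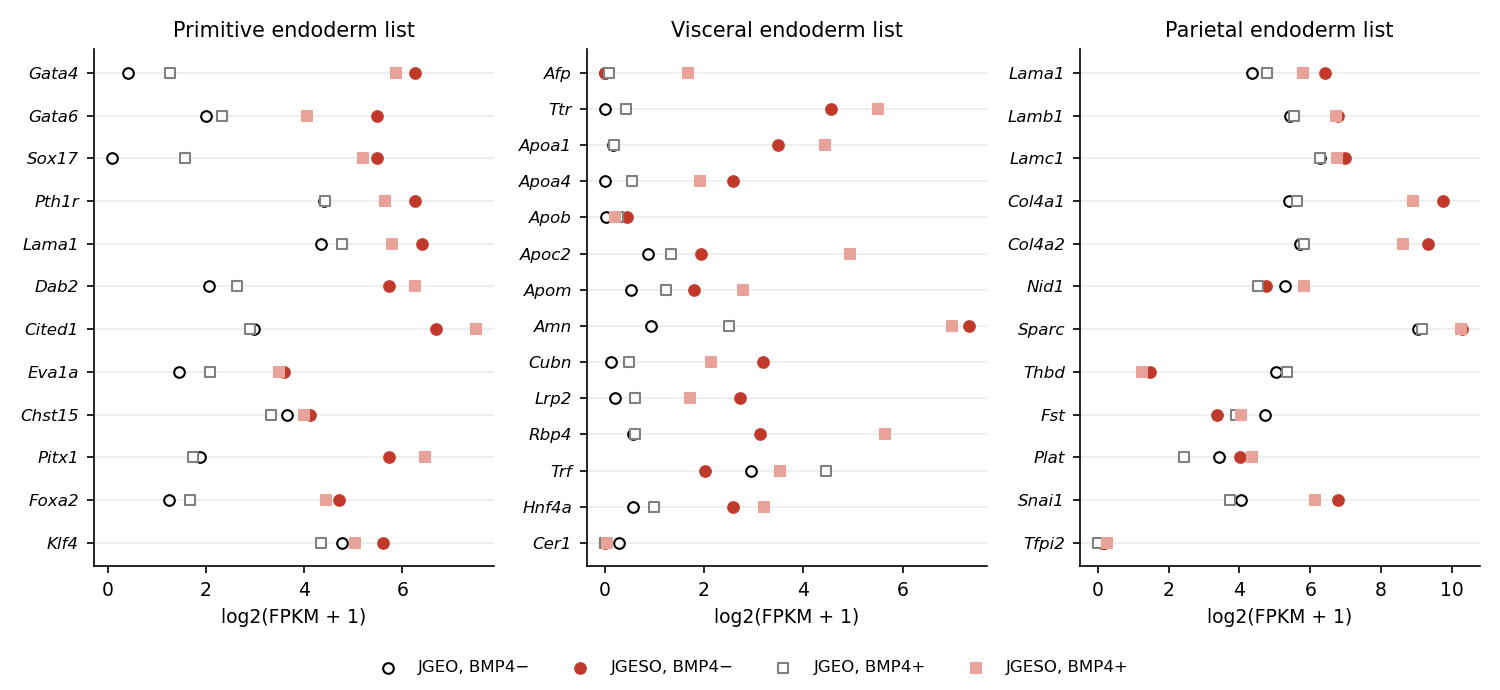
Levels of the PrE, visceral endoderm and parietal endoderm genes reported here as log2(FPKM + 1) (x axis), 1 point per library, for JGEO (open) and JGESO (filled), without BMP4 (circles) and with BMP4 (squares). *Gata4*, *Sox17* and *Amn* lie under 3 in both JGEO libraries and over 5 in both JGESO libraries, while *Thbd* lies higher in JGEO.

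Visceral endoderm genes were also higher, with 11 of 15 higher, 0 lower and a median difference of 2.51. The higher genes named here were below an FPKM of 1 in JGEO and compared only through JGESO, which favours a higher call. *Amn*, the membrane anchor of the cubilin receptor, was 0.914 in JGEO and 160 in JGESO (difference 6.39, ratio 175), and reached 127 in JGESO with BMP4 against 4.71 in JGEO with BMP4. Its partner *Cubn* was 0.0878 and 8.18 (3.08) and *Lrp2*, the endocytic receptor megalin, was 0.157 and 5.58 (2.51). The hepatic-type regulator *Hnf4a* was 0.475 and 4.98 (2.02). *Ttr*, a carrier of thyroid hormone, was listed at 0 in JGEO and at 22.5 in JGESO, and *Apoa4* at 0 and 5.01, so no fold is given for either. *Apoa1*, the main protein of high-density lipoprotein, was 0.126 and 10.2 (3.31), and *Rbp4*, the retinol carrier, was 0.479 and 7.72 (2.56). *Afp*, the classic secreted marker of visceral endoderm, was listed at 0 in both libraries, and *Cer1*, a marker of its anterior part, was at 0.214 in JGEO and 0 in JGESO. *Trf* did not follow the others (6.74 and 3.08, −0.92).

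Parietal endoderm genes divided. Of 12 genes 6 were higher and 2 lower, with a median of 0.96. The largest rises of this list were those of *Col4a1* (41.4 in JGEO and 864 in JGESO, difference 4.35) and *Col4a2* (51.2 and 644, 3.63), which together form the main type IV collagen of basement membranes. Other type IV chains, looked at after their values were seen, did not share them, with *Col4a5* at 31.8 and 16.4 (−0.91), *Col4a6* at 3.63 and 4.84 (0.34) and *Col4a4* at 1.73 and 0.18 (−1.21). Further matrix components had smaller differences. *Lamb1* was 42.4 and 108 (1.33), *Lamc1* was 76.4 and 125 (0.70), and *Sparc*, a collagen-binding matrix protein, was 528 and 1233 (1.22). *Snai1*, a repressor of epithelial genes active in parietal endoderm, was 15.6 and 109 (2.73). Against this direction, *Thbd*, the thrombomodulin gene and a parietal endoderm marker, was 31.7 in JGEO and 1.77 in JGESO (−3.56). *Fst*, the activin antagonist, was 25.5 and 9.32 (−1.36) but −0.61 after GC-centring, and *Nid1* was 38.1 and 25.8 (−0.54).

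Epithelial genes showed the next highest median, 1.97, with 11 of 15 higher and 0 lower. Simple-epithelium keratins were higher, *Krt8* at 4.68 in JGEO and 70.9 in JGESO (difference 3.66), *Krt18* at 8.52 and 126 (3.74) and *Krt19* at 8.86 and 106 (3.44). Of the tight-junction claudins, *Cldn6* was 1.84 and 150 (5.73), *Cldn7* was 0.257 and 59.2 (5.58) and *Cldn4* was 5.97 and 43.2 (2.66). The claudin family as a whole, looked at after its values were seen, had 5 higher and 3 lower of 11 genes compared, the lower ones being *Cldn2* (5.11 and 0.124, −2.44), *Cldn15* (6.18 and 1.83, −1.34) and *Cldn12* (12.1 and 4.79, −1.17, and −0.39 after GC-centring). The adhesion genes *Cdh1* (14.3 and 59.1, difference 1.97) and *Epcam* (15.1 and 45.6, 1.53) were higher, whereas *Cdh2*, the mesenchymal and neural cadherin, was 17.6 and 2.17 (−2.55). The splicing factor genes *Esrp1* (0.892 and 2.73, 0.98) and *Esrp2* (3.77 and 8.08, 0.93) and the epithelial regulator *Grhl2* (1.10 and 1.32, 0.14) were within the threshold.

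The 15 largest rises, taken where JGEO or JGESO reached an FPKM of 5, were led by *Aqp8*, *S100g* and *Amn*. *Aqp8*, a water and peroxide channel, was 0.125 in JGEO and 121 in JGESO (difference 6.76), which rests on about 3 and 3617 fragments. *S100g*, the vitamin D-dependent calcium carrier calbindin-D9k, was 0.777 and 159 (6.50). *Pga5*, a pepsinogen, was 0.0878 and 73.2 (6.09, from about 2 fragments in JGEO) and *Tmprss2*, a membrane serine protease, was 0.0769 and 48.1 (5.51). The plasma protease genes *Habp2* and *F2* (prothrombin) were listed at 0 in JGEO and at 47.7 and 28.1 in JGESO. *Foxq1*, a forkhead factor, was 1.24 and 89.9 (5.34), *Ihh*, a hedgehog ligand made by visceral endoderm, was 0.204 and 33.1 (4.82), *Cyp26a1*, which breaks down retinoic acid, was 1.47 and 58.9 (4.6) and *Clic6* was 0.332 and 30.7 (4.57). *Amn*, *Gata4*, *Cldn6*, *Cldn7* and *Sox17* complete the 15. With BMP4 all 15 were again higher in JGESO than in JGEO, by 3.48 (*Ihh*) to 5.97 (*S100g*). Ranking by the GC-centred difference left 13 of the 15 in place.

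The 15 largest falls included genes of immunity, of the matrix and of the nervous system. *Ccl8*, a monocyte chemokine, was 56.9 in JGEO and 0.792 in JGESO (difference −5.01), and *C1s1*, a complement protease, was 42.0 and 1.23 (−4.27). *A2m*, a protease inhibitor, was 23.2 and 0.154 (−4.39), *Prss23*, a secreted protease, was 36.3 and 0.983 (−4.23), and *Adamts2*, which trims procollagen, was 34.1 and 1.14 (−4.04). *C1qtnf3* was 17.3 and 0.0907 (−4.07), *Nt5e*, the ectoenzyme CD73, was 23.1 and 1.02 (−3.58) and *Mmp28* was 27.4 and 1.32 (−3.61). The genes used in the nervous system were *Fabp7*, a radial glia fatty-acid carrier (16.8 and 0.0664, −4.06), *Sox1* (29.8 and 1.29, −3.75), *Th*, which makes the dopamine precursor (21.3 and 0.72, −3.69), and *Nkx1-2*, a homeobox gene of the neural plate margin (26.6 and 0.85, −3.90). *Igfbpl1* (45.0 and 2.41, −3.75), *Myo16* (14.1 and 0.204, −3.65) and *Tspan6* (66.5 and 3.49, −3.91) complete the list. All 15 were lower in JGESO with BMP4 too, by −1.20 (*Fabp7*) to −4.11 (*Nt5e*). By the GC-centred ranking 11 of the 15 remained.

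Neural marker genes had the lowest median of the cell type lists, −1.08, with 0 of 10 higher and 5 lower. Beside *Sox1* these were *Nes* (15 in JGEO and 2.34 in JGESO, difference −2.26), *Map2* (2.37 and 0.087, −1.63), *Pax6* (1.88 and 0.0956, −1.39) and *Sox11* (29.6 and 12, −1.23). The GC-centred count was 3 lower, and *Map2* (−0.93), *Pax6* (−0.84) and *Sox11* (−0.50) were then within the threshold. *Pou3f1*, which marks primed epiblast and neural progenitors, was 15.5 and 2.96 (−2.06).

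Naive pluripotency genes did not move together. Of 20 genes 3 were higher, 4 were lower and 13 were within the threshold, with a median of −0.04. GC-centred differences gave 4 higher, 3 lower and a median of 0.44, so the sign of this median is not settled. *Sox2*, the partner of OCT4, was 102 in JGEO and 105 in JGESO (difference 0.04), *Nanog* was 19.6 and 11.5 (−0.72) and *Zfp42* (REX1) was 6.56 and 3.63 (−0.71). *Dppa5a*, the most abundant of these genes, was 164 and 262 (0.67). *Dnmt3l*, a cofactor of DNA methylation (5 and 19.1, 1.74), *Klf5* (20.2 and 58.0, 1.47) and *Utf1* (33.6 and 74.6, 1.13) were higher, though *Utf1* was at 0.79 after GC-centring. *Tfcp2l1*, a naive-state factor downstream of LIF, was 18.3 and 2.94 (−2.29). The remaining lower genes were *Nr0b1* (28.7 and 9.32, −1.53), *Tdh*, the threonine dehydrogenase of mouse stem cells (81.7 and 32.2, −1.32), and *Tdgf1*, the NODAL co-receptor (6.76 and 2.76, −1.04, and −0.26 after GC-centring). Formative and primed genes had 0 of 12 higher and 2 lower.

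Genes of the 2-cell-like state were at low levels. Of 12 such genes 4 were higher and 0 lower (5 of the 5 genes compared were higher by the GC-centred difference), and their FPKM summed to 2.32 in JGEO and 13.3 in JGESO. Of the genes compared, *Zscan4c* (0.0273 in JGEO), *Zscan4f*, *Usp17lc* (0.256) and *Usp17ld* (0.114) passed the filter only through JGESO. That filter favours a higher call, so these counts are no result about the list. The highest of the list in JGESO were *Zscan4b* (1.24 and 3.23, difference 0.92) and *Zscan4f* (0.068 and 2.71, 1.80). Reads of the near-identical *Zscan4* copies can be split between them. Germline genes had 3 higher and 1 lower of 12, mesendoderm genes 1 and 3 of 12, and trophoblast genes 3 and 1 of 12, beside 7.13% higher and 20.5% lower over all genes compared, and the lower share of the mesendoderm genes is near the latter. Some of the higher germline and trophoblast genes were also compared only through JGESO, so their counts are no result about these lists. *Rhox5*, a germline and placental homeobox gene, was 10.7 in JGEO and 36.6 in JGESO. *Cdx2*, the trophectoderm factor, was 9.47 and 2.19 (−1.71). *Gsc*, a gastrulation homeobox gene, was 7.62 and 0.517 (−2.51), and *Wnt3* was 14.0 and 3.99 (−1.58).

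**Figure D4:**
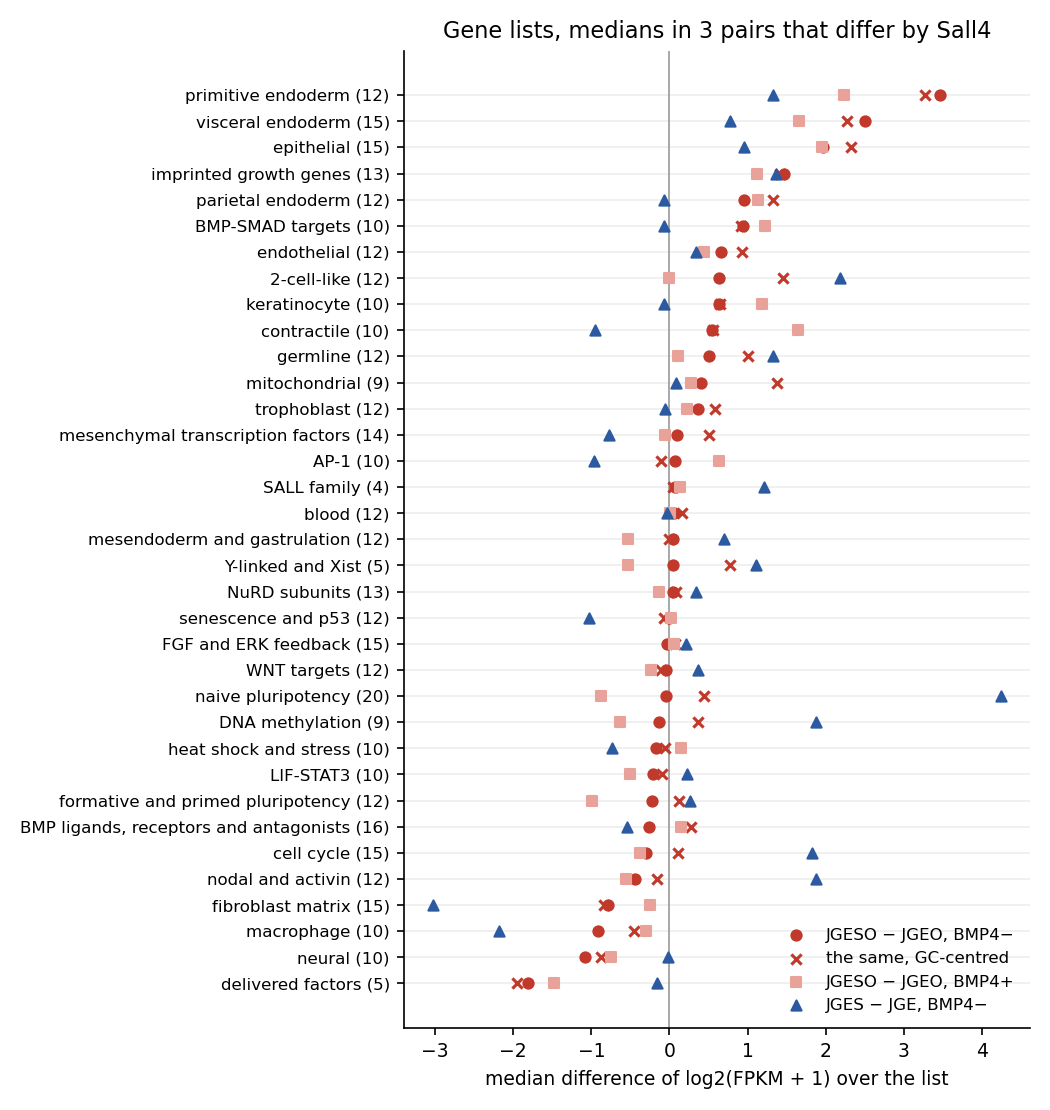
Median difference of log2(FPKM + 1) (x axis) over each gene list (y axis, number of genes in brackets) in 3 pairs of libraries that differ by *Sall4*, with the GC-centred median of the main pair as a cross. PrE genes have the highest median of the main pair, 3.47, and the naive pluripotency genes have −0.04 there and 4.25 in JGES against JGE.

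Markers of the starting fibroblasts were present in both libraries. *Col1a1* was 151 in JGEO and 153 in JGESO (difference 0.02) and *Col1a2* was 128 and 167 (0.38). Of the 15 fibroblast matrix genes 0 were higher and 6 lower, with a median of −0.79. The lower genes were *Fbn1*, a microfibril protein (19.5 and 1.48, −3.05), *Thbs2* (13.5 and 1.09, −2.79), *Lox*, a collagen crosslinker (10.0 and 1.39, −2.20), *Col5a2* (42.6 and 10.8, −1.89), *Lum* (3.44 and 0.341, −1.73, and −0.84 after GC-centring) and *Thbs1* (30.7 and 9.19, −1.64). Mesenchymal transcription factors had 4 higher and 3 lower of 14. *Twist1* was 74.2 and 215 (1.52), *Prrx2* was 7.81 and 57.8 (2.74) and *Snai2* was 4.6 and 21.4 (2.00), and *Osr1* was 30.0 and 8.27 (−1.74), *Tbx15* was 6.38 and 1.60 (−1.50, and −0.88 after GC-centring) and *Foxc2* was 47.0 and 16.2 (−1.48).

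Cell types that MEF cultures can carry were checked by their own genes. Macrophage genes summed to an FPKM of 107 in JGEO and 58.4 in JGESO, with 0 of 10 higher and 5 lower (1 and 3 by the GC-centred difference) and 0 genes listed at 0. *Lyz2* was 66.1 and 31.9 (difference −1.03, and −0.40 after GC-centring) and *C1qb* was 10.4 and 3.81 (−1.25). *Lyz2* and *C1qb* were lower, as *Ccl8* and *C1s1* were, while 1 gene of the list was higher by the GC-centred difference. The part of macrophages in the lower values of *Ccl8* and *C1s1* was not tested. Endothelial genes summed to 29.7 and 77.1, with 5 higher and 1 lower of 12. *Sox18*, a close relative of *Sox17*, was 1.15 and 12.7 (2.67) and *Flt1* was 0.297 and 6.86 (2.60), while *Kdr* was 3.25 and 1.71 (−0.65). In the single cells described further on, *Flt1* was also among the genes of the ParE type. Of 12 blood genes 2 were higher, and the globin *Hbb-y* was listed at 0 in both libraries. Among the higher endothelial and blood genes, *Flt1* and some others were compared only through JGESO, which favours a higher call. Keratinocyte genes summed to 29.7 and 58.8, with 3 of 10 higher and 0 lower. These 3, *Krt5*, *Krt14* and *Krt17*, were compared only through JGESO, which favours a higher call. *Krt5* was listed at 0 in JGEO and at 10.3 in JGESO, *Krt14* at 0 and 6.73, and *Trp63*, the regulator of both, was 1.52 and 0.264 (−1.0).

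Among targets of BMP and SMAD signaling, in cells without added BMP4, 5 of 10 were higher and 0 lower, with a median of 0.94 (3 higher and 0.91 GC-centred). *Id1*, the most direct SMAD1/5 target, was 81.1 in JGEO and 339 in JGESO (difference 2.05). *Msx2* was 1.90 and 16.6 (2.60), *Atoh8* was 4.34 and 15.2 (1.60), *Msx1* was 35.7 and 84.7 (1.22) and *Smad6*, the feedback inhibitor, was 15.2 and 36.1 (1.20), the last 2 being at 0.93 and 0.91 after GC-centring. *Id3* was 285 and 432 (0.60) and *Id2* was 105 and 70.5 (−0.57). Among the ligands, *Bmp2* was 1.95 and 10.1 (1.91) and *Bmp6* was 1.93 and 8.02 (1.62), while *Bmp4* was 23.7 and 15.5 (−0.58). The receptors *Bmpr1a* (4.54 and 2.68, −0.59), *Bmpr2* (4.45 and 2.50, −0.64) and *Acvr1* (7.44 and 5.75, −0.32) were within the threshold. Of the antagonists reported here, *Fst* is given above, and *Chrd* (4.48 and 8.42, 0.78) and *Nog* (1.13 and 1.34, 0.14) were within it.

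In the nodal and activin list 2 of 12 were higher and 2 lower, among them *Nodal* itself (3.44 and 8.33, difference 1.07) and the antagonist *Lefty2* (12.1 and 4.76, −1.18). After GC-centring the list had 0 higher and 2 lower, with *Nodal* at 0.83 and *Lefty2* at −0.96, both within the threshold. In the WNT target list 0 of 12 were higher and 2 lower, *Cdx1* (35.8 and 7.77, −2.07) and *Cdx2*, while *Axin2*, the general target, was 64.8 and 57.5 (−0.17). FGF signaling drives PrE in the blastocyst, and of its 15 genes 3 were higher and 1 lower (4 and 1 GC-centred). The receptors *Fgfr3* (2.45 and 9.97, 1.67) and *Fgfr4* (4.80 and 13.3, 1.30) were higher, *Fgfr1* was 39.5 and 46.0 (0.22), *Fgfr2* was 9.65 and 4.98 (−0.83) and *Spred1*, an ERK inhibitor, was 30.1 and 7.32 (−1.90). In the LIF and STAT3 list 1 of 10 was higher and 3 were lower (1 and 4 GC-centred), including *Il6st*, the shared receptor subunit gp130 (27.1 and 6.98, −1.82).

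Imprinted growth genes were higher in 7 of 13 cases and lower in 0, with a median of 1.47. *H19*, a maternally expressed RNA, was 570 in JGEO and 4723 in JGESO (difference 3.05). *Igf2*, the paternally expressed growth factor beside it, was 137 and 626 (2.18), *Dlk1* was 6.82 and 75.0 (3.28) and *Cdkn1c*, a cell cycle inhibitor, was 244 and 816 (1.74). *Igf2r* was 22.3 and 13.6 (−0.68) and *Plagl1* was 13 and 6.49 (−0.90).

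Of the NuRD subunits, the partners of SALL4, 0 of 13 were higher and 3 lower (1 and 1 GC-centred), a count of lower genes near the 20.5% over all genes compared. *Chd3* was 32.7 in JGEO and 6.70 in JGESO (difference −2.13), *Hdac1* was 50 and 23.4 (−1.07) and *Hdac2* was 14.5 and 5.81 (−1.18). After GC-centring only *Chd3* of these 3 was past the threshold (−2.37), with *Hdac1* at −0.57 and *Hdac2* at −0.30. *Mta1* was 54.1 and 109 (a difference that rounds to 1.00 but was within the threshold). Cell cycle genes had 0 of 15 higher and 2 lower, *Pcna* (222 and 78.0, −1.50) and *Ccna2* (24.7 and 10.8, −1.13), which were at −0.70 and −0.37 after GC-centring. Among 12 senescence and p53 genes 2 were higher and 4 lower (2 and 2 GC-centred), *Cdkn2a* being 83.5 and 104 (0.32) and *Cdkn1a* 413 and 257 (−0.68). AP-1 genes had 1 higher (*Batf*, 1.31 and 8.28, 2.01) and 1 lower (the delivered *Jdp2*) of 10, and heat shock and stress genes 2 and 1 of 10. DNA methylation genes had 1 higher and 0 lower of 9.

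The study's design holds 3 further pairs that differ by *Sall4* and share no library with this one. Values of 2 are set side by side without a test, and of the third, JGES against JGE with BMP4, only levels are given. In JGESO against JGEO with BMP4, 1062 genes were higher (7.35% of 14458) and 3022 lower (20.9%), or 10.1% and 8.67% by the GC-centred difference. In JGES against JGE without BMP4, which lacks *Oct4* on both sides, 3117 were higher (19.9% of 15644) and 2567 lower (16.4%), or 16.5% and 16.8% GC-centred. Of the 1006 genes higher without BMP4, 544 were higher with BMP4 too (54.1% of the first list and 51.2% of the second), and 3 were lower. Of the same 1006 genes, 396 were higher in JGES against JGE (39.4% and 12.7%) and 62 were lower. Of the 2894 lower genes, 1762 were lower with BMP4 (60.9% and 58.3%) and 12 higher, and 752 were lower in JGES against JGE (26% and 29.3%) and 242 higher. The 2 JGESO pairs also share the slope with GC content, with medians of the GC-centred differences at 0 by construction. Among GC-centred calls the shared genes with BMP4 were 695 of 1255 higher (55.4%) and 665 of 1273 lower (52.2%), and those with JGES against JGE were 477 higher (38%) and 499 lower (39.2%).

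List medians are given for JGESO against JGEO and these 2 pairs, in that order. PrE genes had a median of 3.47 in JGESO against JGEO, 2.24 with BMP4 (10 of 12 higher) and 1.32 in JGES against JGE (7 higher, 1 lower). Naive pluripotency genes had medians of −0.04, −0.88 (1 higher, 8 lower) and 4.25 (20 of 20 higher). Their summed FPKM was 595 in JGEO and 715 in JGESO, 809 and 475 with BMP4, 45.6 in JGE and 1343 in JGES, and 58.5 and 130 in JGE and JGES with BMP4. The summed FPKM of the PrE genes was 96.7 in JGEO and 627 in JGESO, 51.2 in JGE and 120 in JGES, and 48 and 294 in JGE and JGES with BMP4. These naive pluripotency genes were thus at a high level in JGEO, which had no added *Sall4*, and at a low level in JGE. *Nanog*, for example, was 19.6 in JGEO, 11.5 in JGESO, 0.0818 in JGE and 59.0 in JGES. Fibroblast matrix genes had medians of −0.79, −0.25 and −3.03, and epithelial genes 1.97, 1.95 and 0.96. Cell cycle genes had −0.30, −0.38 and 1.83. None of these differences between pairs was tested. JGES is a shallow library, and the GC slope of its pair is the reverse of that of the JGESO pairs. It is also the day 7 point of a JGES time course, and whether it shares a batch of MEFs or a sequencing run with JGE is not given. Y-linked genes and *Xist* summed to an FPKM of 18.7 in JGE and 61.5 in JGES, and to 4.68 in JGEO and 6.46 in JGESO. The part of cell origin or run in the differences between JGES and JGE was not tested. The GC-centred medians of that pair were 4.34 for the naive pluripotency and −3.03 for the fibroblast matrix genes.

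Single cells of the study gave lists from cultures apart from the bulk libraries. For each of the authors' cell types in JGES cells of day 7, the 100 genes with the highest fold of CPM (UMIs scaled to a common total) over the other cells of the sample were taken and followed in JGESO against JGEO. The label ParE, given to 142 of 8685 cells without BMP4, is not spelled out in the labels. The study describes a class of PrE-like cells, and no other deposited type bears such a name. Its 100 genes hold 9 of the 12 PrE genes, 6 of the 12 parietal endoderm genes and 4 of the 15 visceral endoderm genes, and the type is called by its label here. *Gata4* had a UMI in 53.5% of the ParE cells, 0.274% of the cells of the intermediate state and 0.197% of the cells labelled endothelial, at medians of 11562, 11892 and 15083 UMIs per cell. The type that the authors labelled endothelial cells has globins and further blood or myeloid genes (*Hbb-bh1*, *Hba-a1*, *Gfi1b*, *Spi1*, *Tyrobp*) beside the endothelial *Kdr* and *Gja4* among its 10 highest folds, and its 100 genes hold 8 of the 12 endothelial and 7 of the 12 blood genes, so the name is used only as the authors' label. The values of the ParE type rest on few cells, and 2 barcodes occurred in both single-cell samples.

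Of the 100 ParE genes 75 were higher in JGESO, 4 lower and 21 within the threshold, with a median of 2.17 (GC-centred 2.45). Over all genes compared 7.13% were higher and 20.5% lower. Many ParE genes, such as *Sox17* (0.0575 in JGEO) and *Pga5* (0.0878), were compared only through JGESO, unlike *Col4a1* (41.4) and *Lama1* (19.3). That filter favours a higher call, so the counts are not comparable with these shares. Some pluripotent, endothelial-labelled and placenta-like genes below were also compared only through JGESO. The 50 strongest gave 46 higher, 0 lower and a median of 3.42. The same 100 genes had medians of 1.52 in the BMP4+ pair (70 higher, 4 lower) and 0.61 in JGES against JGE (34 higher, 17 lower). Genes of pluripotent cells, of which 96 of 100 are in the table, had 22 higher and 10 lower and a median of 0.31 (29, 7 and 0.78 over the 74 genes compared after GC-centring), against 3.33 in JGES against JGE (83 higher, 1 lower) and −0.49 with BMP4 (3 higher, 26 lower). Genes of the cells labelled endothelial had 29 higher and 5 lower (median 0.31), genes of placenta-like cells, taken from the BMP4+ sample, 31 and 4 (0.52), and genes of the intermediate state 17 and 31 (−0.43). *S100g* stood at 1218 CPM in ParE cells, 1097 in the cells labelled endothelial, 20.2 in intermediate cells and 14.9 in pluripotent cells, with a UMI in 88.7%, 53.1%, 17.1% and 20.7% of the cells. *Aqp8* stood at 127, 86.9, 0.938 and 0.809 CPM, with a UMI in 63.4%, 32.1%, 1.14% and 1.26%. Free RNA can give UMIs in cells that do not express a gene, and *Dppa5a*, at 6305 CPM in pluripotent cells, had a UMI in 94% of intermediate cells at 261 CPM.

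**Figure D5:**
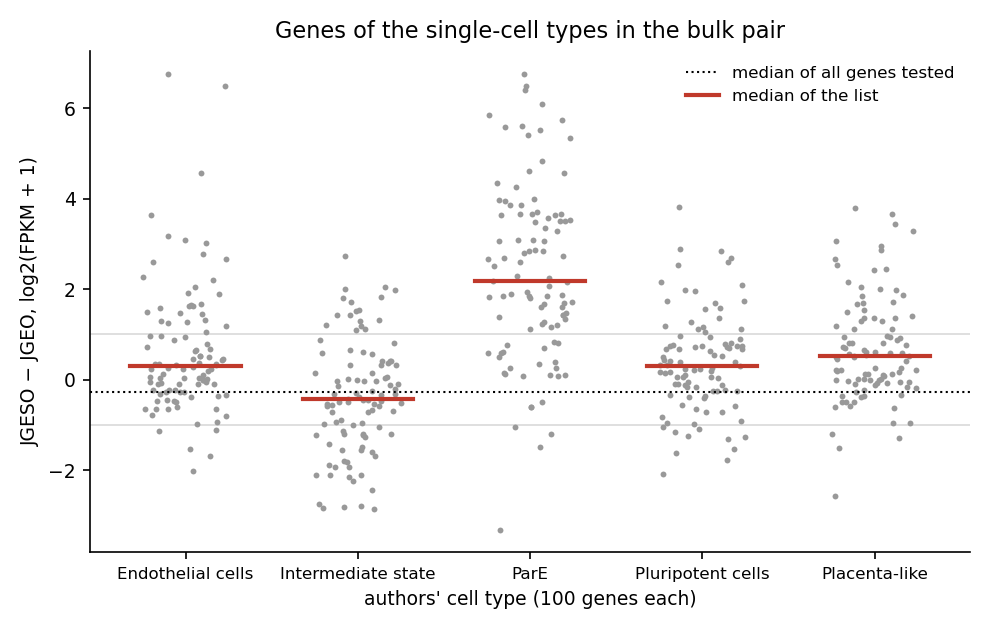
Difference between JGESO and JGEO (y axis, log2(FPKM + 1)) of the 100 genes of each single-cell type (x axis, authors' cell types), 1 grey point per gene, with the list median in red and the median of all genes compared dotted. The median of the ParE genes is 2.17 and that of the intermediate state genes −0.43.

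Peak lists from other cells of the study were laid over the gene starts on mm10. They come from MEFs (ATAC-seq, 125470 peaks) and from MEFs with wild-type SALL4 (SALL4-WT) alone at day 6 (Cut&Tag of SALL4, 69475 peaks, and of H3K27ac, a mark of active promoters and enhancers, 19841 peaks), not from JGEO or JGESO cells. Of 13049 genes compared with an annotated start, 80.2% had a SALL4 peak within 2 kb of a start. The share was 56.8% of the higher genes (535 of 942) and 80.9% of the lower genes (2179 of 2694). H3K27ac peaks lay near 76.5% of all, 45.4% of higher and 77.7% of lower genes, and ATAC peaks of MEFs near 93.1%, 78.6% and 94.4%. With genes called by the GC-centred difference, SALL4 peaks lay near 65.9% of higher and 71.4% of lower genes, a smaller gap between both sets. Among the 77 genes with a rise of at least 3, 41.6% had a SALL4 peak, 22.1% an H3K27ac peak and 70.1% an ATAC peak. Among the 49 genes with a fall of at least 3 the shares were 61.2%, 38.8% and 93.9%. SALL4 and H3K27ac peaks thus lay near fewer genes than in the whole at both ends of the differences. Many of these genes were compared only through the library where they are high. Below an FPKM of 1 were 57.0% of such rises in JGEO (5.16% of all genes compared) and 41.5% of such falls in JGESO (12.3% of all). The part of expression level in these peak shares was not tested.

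PrE genes and visceral endoderm genes are given separately, without a test of their shares. Of the 12 PrE genes 9 had a SALL4 peak near a start, 6 an H3K27ac peak and 12 an ATAC peak of MEFs. Over all genes compared the shares were 80.2%, 76.5% and 93.1%. The SALL4 count of the PrE genes is near that share and is not read as a trait of the list. Of the 15 visceral endoderm genes 2 had a SALL4 peak, 0 an H3K27ac peak and 9 an ATAC peak. A SALL4 peak covered a start of *Gata4*, *Gata6*, *Lama1*, *Dab2*, *Cited1* and *Aqp8*, and H3K27ac peaks covered a start of *Gata6*, *Lama1* and *Dab2* but none was within 2 kb of *Gata4*. *Sox17*, *Foxa2* and *Pitx1* had an ATAC peak within 2 kb and neither of the others, and *S100g* and *Pga5* had none of the 3. Thus of the 3 genes whose windows are printed above, *Dab2* had all 3 kinds of peak over a start. *Aqp8* had a SALL4 peak alone over a start, with the nearest ATAC peak 1995 bases away, and *S100g* had none within 2 kb. A gene can have several starts, and whether the covered start is that of the printed window is not given.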

How the data were processed

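Bulk RNA-seq of day 7 was used as deposited. The authors trimmed reads (Trim Galore 0.6.4), mapped them to mm10 (HISAT2 2.2.1) and deposited FPKM per gene symbol (StringTie 2.2.1), 1 library per condition, in 1 table of 8 libraries. The gene annotation is not given in the sources used here. The unstated strand setting means that antisense partners cannot be told apart. For single cells, the authors deposited the UMI count per gene and cell with a cell type, after alignment to mm10 with STAR. Of its cells 20020 were used, and 10749 columns belong to no sample here and were not used. Doublets were not called again. For peaks, the authors mapped reads with Bowtie2 2.4.5, filtered with SAMtools 1.16.1 and deposited MACS 1.4.2 peaks with a score. Cut&Tag replicates were merged before calling.

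Computations used Python 3.11.15, numpy 2.4.6 and pandas 2.3.3, and the script was tested on simulated data. Differences are of log2(FPKM + 1) where JGEO or JGESO reached an FPKM of 1, with 1364 short RNAs left out of the table. A call needs a difference of at least 1. No test was run, since each condition has 1 library. GC content and length came from GENCODE vM21 transcripts and covered 95.6% of the genes compared. Fragment numbers behind values are estimates from the steps of FPKM. Of the rows compared, 332 hold values identical to another row, such as 1 gene under 2 symbols, and copies of multigene families are uncertain. Promoter sequences are RefSeq's, on GRCm38.p6. Named genes are the 15 that rose most and the 15 that fell most where 1 library reached an FPKM of 5, leaving out gene models without a name of their own, and members of 35 gene lists, which hold 408 entries of which 407 are in the table. Values of some list members are not reported here, although list counts and medians include them. List medians take every member in the table, and GC-centred counts take the genes compared. The members and lists were chosen with earlier results of these data known. Alternatives were a pseudocount of 0.1, other scalings and filters, 50 genes per cell type, peaks within 1 kb or in the upper part of the scores, and GC-centring (the difference minus the median of a window of genes nearest in GC content).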

Additional observations from a re-analysis of the deposited data

Results flagged for a closer look

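For 24 of the named or listed genes that are reported here, JGESO against JGEO and JGES against JGE, both without BMP4, lay past the threshold in opposite directions. Over all genes, 62 of the 1006 higher genes (6.16%) and 242 of the 2894 lower genes (8.36%) were opposite in this way. The 24 come from chosen genes and no share is given for them, so they are not read as more or fewer than that. Each pair has 1 library a side, the difference between the pairs was not tested, and JGES is the shallowest library. The differences also slope with GC content in opposite ways, with a correlation of 0.41 in the JGESO pair and −0.17 in the JGES pair. After GC-centring 18 of the 24 were still past the threshold in opposite directions, and *Smad6* (0.91 and −0.89), *Tek* (−0.49 and 0.86), *Tdgf1* (−0.26 in the JGESO pair), *Lefty2* (−0.96), *Pcna* (−0.70) and *Ccna2* (−0.37) were not. The first value given is the difference of log2(FPKM + 1) of JGESO minus JGEO and the second that of JGES minus JGE.

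The opposite directions hold for cells without BMP4. With BMP4, 8 of the 12 genes that were lower in JGES than in JGE had the higher FPKM in JGES, among them *S100g* (16.2 in JGE and 80.1 in JGES), *Cyp26a1* (6.78 and 36.0), *Bmp2* (2.75 and 9.04) and *Sparc* (479 and 787). Of the 12 genes that were higher in JGES, 8 had the higher FPKM in JGES with BMP4 too. Both counts take any higher FPKM without a threshold, such as *Smad6* at 47.6 in JGE and 52.1 in JGES. The share over all genes is not given, so these counts are no result about either set.

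Of the 12 genes that were higher with *Sall4* in the JGEO background and lower in the JGE background without BMP4, *S100g* had 6.50 and −1.71 and *Cyp26a1* had 4.6 and −1.17. Mesenchymal and contractile genes were *Prrx2* (2.74 and −2.47), *Twist1* (1.52 and −1.26) and *Myl9* (1.45 and −1.38). Secreted and matrix-related genes were *Sparc* (1.22 and −1.62) and *Bmp2* (1.91 and −1.36). The others were *Eva1a* (2.15 and −1.09), *Runx1* (1.06 and −1.65), *Fgfr4* (1.30 and −1.73), *Smad6* (1.20 and −1.05) and *Cdkn1c* (1.74 and −1.47).

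Genes that were lower in the JGEO background and higher in the JGE background without BMP4 included *Tfcp2l1* (−2.29 and 4.02), *Nr0b1* (−1.53 and 1.93), *Tdh* (−1.32 and 2.63), *Cdx1* (−2.07 and 3.27), *Gbx2* (−1.07 and 2.83), *Tek* (−1.19 and 1.12), *Ccna2* (−1.13 and 2.08) and *Pcna* (−1.50 and 1.18). For 4 more the JGE library is listed at 0, so only levels are given for that pair. *Tdgf1* had −1.04 and was 0 in JGE and 58.5 in JGES, *Lefty2* had −1.18 and was 0 and 11.8, and *Cdx2* had −1.71 and was 0 and 3.64. *Pou5f1* had −2.08 and was 0 in JGE and 224 in JGES, where *Oct4* was not among the delivered factors.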

How the results depend on the processing

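The median of the naive pluripotency genes, −0.04, was −0.05 with a pseudocount of 0.1, 0.15 with libraries set to the same median ratio, −0.17 with libraries rescaled to one total and 0.44 after GC-centring, an alternative chosen after seeing the data. The cause was not tested. The number of lower genes, 2894, was 1273 after GC-centring, which by construction removes the median difference at each GC content and leaves out genes without a GC value. The number of higher genes stayed within 1.5 times 1006 under each alternative, and the PrE median, 3.47, ranged from 3.27 (GC-centred) to 3.84 (pseudocount of 0.1). No median of the epithelial (1.84 to 2.83), visceral endoderm (2.27 to 3.76), imprinted (1.34 to 1.67), fibroblast matrix (−0.91 to −0.68) or neural list (−1.92 to −0.88) changed sign. Those of formative and primed pluripotency (−0.42 to 0.12), cell cycle (−0.42 to 0.11) and BMP ligands, receptors and antagonists (−0.42 to 0.27) did, as did those of 9 more lists with a median between −0.17 and 0.07. The senescence and p53 median, which rounds to 0, ranged from −0.11 to 0.1, so its sign is not settled either. No paired analysis was possible because JGEO and JGESO have 1 library each and so share only 1 replicate number, which also leaves no replicate to leave out. A fit over all pairs of libraries that differ by *Sall4* was not run. Depth limits the low side of large ratios, where values rest on few fragments, and every value of JGES.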

Other observations

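Gene families outside the lists were looked at after their values were seen, and are given as levels without a test. All 6 *Fthl17* genes, X-linked ferritin-like genes, were higher in JGESO than in JGEO (5 of the 6 by the GC-centred difference). *Fthl17a* (listed at 0 in JGEO), *Fthl17e* (0.44) and *Fthl17f* (0.763) were compared only through JGESO, which favours a higher call. *Fthl17c* was 4.43 in JGEO and 74.8 in JGESO, and *Fthl17b* was 3.10 and 53.4. The family summed to an FPKM of 10.1 and 172. In the BMP4+ pair 0 of the 6 were past the threshold, and in JGES against JGE all 6 were higher, from JGE values listed at 0. The copies are near-identical, and their reads can be split between them. Of 33 *Rhox* genes, the reproductive homeobox cluster of the X chromosome, 6 reached the FPKM needed to be compared. Of these 5 were higher and 0 lower. *Rhox1* (0.259 in JGEO), *Rhox2a* (0.224), *Rhox6* (0.647) and *Rhox13* (0.396) were compared only because JGESO reached an FPKM of 1. That filter favours a higher call, so the count is not comparable with the 7.13% higher over all genes compared. By the GC-centred difference 6 of the 6 were higher, and *Rhox5* was 10.7 and 36.6.

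Of 39 *Hox* genes 2 were higher, 11 lower and the others within the threshold, beside 7.13% higher and 20.5% lower over all genes compared. The higher genes were *Hoxa10* (12.3 in JGEO and 45.6 in JGESO, difference 1.81) and *Hoxa11* (4.48 and 23.4, 2.16), while *Hoxb1* was 10.2 and 1.73 (−2.03) and *Hoxa5* was 13.6 and 3.37 (−1.74). Of 51 keratin genes 10 were compared in this pair, with 7 higher and 2 lower (7 and 3 GC-centred). The shares over all genes compared were 7.13% and 20.5%. *Krt5*, *Krt14*, *Krt17* and *Krt7* were compared only through JGESO, which favours a higher call. In the BMP4+ pair 26 of the 51 were higher, beside 7.35% over all genes compared there, and the difference between the pairs was not tested. The 26 are counted among all 51 keratins, compared or not. *Krt5* (0.725 in JGEO with BMP4), *Krt14* (0.201), *Krt17* (0.178) and *Krt7* (0.827) were compared there only through JGESO with BMP4. That filter favours a higher call, so the count is not comparable with 7.35%. *Krt5* reached 89.6 in JGESO with BMP4. Ribosomal protein genes had 11 of 76 higher and 2 lower with a median of 0.46, or 23 and 0 by the GC-centred difference.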
